A study of Homo sapiens with 9 samples.

Results

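Platelet genes were followed across 9 RNA-seq libraries labelled as HEK293T cells, a line derived from human embryonic kidney, although 3 of the 9, those labelled hPRM1, had almost none of the markers of that line. The set had 10 members (PF4, PF4V1, PPBP, ITGA2B, ITGB3, GP1BA, GP1BB, GP9, TUBB1 and GP6) of 57338 genes in the deposited table, and each symbol was matched to its Ensembl identifier. All 10 were found. The members were chosen by their known platelet expression with their RPKM values in these same libraries in view, in particular those that set the libraries labelled hPRM1 apart from the empty vector, so these levels are given as a description. The study asked how human protamines, the small basic proteins that pack DNA in sperm, affect transcription in somatic cells. By the labels, HEK293T cells were transfected transiently with a plasmid for enhanced green fluorescent protein (EGFP) alone, called the empty vector, or for EGFP joined to hPRM1 or to hPRM2, and cells with high EGFP were sorted 3 days later. Each of the 3 conditions had 3 libraries, which enrich the 3′ ends of polyadenylated transcripts. The labels do not say whether replicates came from separate cultures, so any p-value measures only the spread between these libraries. Values are RPKM as deposited, the reads of a gene scaled to 1000000 reads of its library and to 1 kilobase of gene length. Estimated reads are given as CPM, on the same scale of 1000000 reads without the length.

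Platelets are fragments shed by megakaryocytes of the bone marrow. They carry no nucleus but keep some of the messenger RNA of their parent cell. They bind injured vessel walls through adhesion receptors, clump through an integrin that binds fibrinogen, and release chemokines from storage granules. HEK293T cells are not of this lineage.

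The promoters of the members are shown first, because the members are a lineage set and megakaryocyte promoters are known for GATA and ETS factor sites. Promoter sequences from RefSeq (GRCh38.p14, 250 bases before to 50 after the start) were given for 7 of the 10 members (PF4V1, PPBP, ITGA2B, GP1BB, GP9, TUBB1 and GP6). GATA letters, the word AGATAA or TGATAA and its forms that end in G instead of the last A, were found on either strand in 4 of the 7, those of PPBP, ITGA2B, GP1BB and GP6, while 8769 of 35116 promoters of the same length held them. ETS letters, the word GGAAG after an A or a C on either strand, were found in 6 of the 7, all but TUBB1, against 46.9% of all promoters. Both kinds were present in 4 of the 7, against 10.5%. The longer motif of NF-E2 was in none of the 7 and in 0.285% of all promoters. These are matches of letters in a window, not bound sites. Those of PPBP (chr4:73988141-73988440, minus strand), ITGA2B (chr17:44389600-44389899, minus strand) and GP1BB (chr22:19723289-19723588, plus strand) are printed as cases with both kinds, and TUBB1 (chr20:59019179-59019478, plus strand) as the case with neither. Capitals mark GATA and ETS letters, which share bases in the first run of capitals of PPBP.
PPBP: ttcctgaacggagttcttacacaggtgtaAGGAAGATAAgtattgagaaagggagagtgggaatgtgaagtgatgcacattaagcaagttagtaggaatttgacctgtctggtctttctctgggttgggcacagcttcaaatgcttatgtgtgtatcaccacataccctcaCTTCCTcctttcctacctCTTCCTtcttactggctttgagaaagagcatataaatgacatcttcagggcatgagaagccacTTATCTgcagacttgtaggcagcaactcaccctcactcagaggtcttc
ITGA2B: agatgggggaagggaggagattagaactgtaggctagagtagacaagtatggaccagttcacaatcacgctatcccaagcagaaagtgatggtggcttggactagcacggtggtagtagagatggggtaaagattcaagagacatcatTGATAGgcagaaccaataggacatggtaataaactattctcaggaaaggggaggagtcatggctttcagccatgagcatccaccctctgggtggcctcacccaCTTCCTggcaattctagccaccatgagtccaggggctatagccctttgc
GP1BB: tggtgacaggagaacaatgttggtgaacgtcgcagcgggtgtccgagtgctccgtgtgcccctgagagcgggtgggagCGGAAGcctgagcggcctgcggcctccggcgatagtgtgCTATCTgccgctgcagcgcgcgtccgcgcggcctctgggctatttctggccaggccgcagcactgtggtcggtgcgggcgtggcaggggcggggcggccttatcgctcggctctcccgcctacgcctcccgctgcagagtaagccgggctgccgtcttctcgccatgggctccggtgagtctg
TUBB1: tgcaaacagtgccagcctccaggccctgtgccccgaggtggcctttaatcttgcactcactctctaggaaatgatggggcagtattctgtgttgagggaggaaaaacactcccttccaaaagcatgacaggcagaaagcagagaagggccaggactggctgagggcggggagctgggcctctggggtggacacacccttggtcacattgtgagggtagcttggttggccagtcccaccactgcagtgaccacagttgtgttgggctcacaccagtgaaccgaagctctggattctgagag

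The libraries labelled hPRM1 differed from their label. The transcript of PRM1 was at 0 in each of the 9 libraries, those labelled hPRM1 included, whereas PRM2 had 36130 to 71220 RPKM in hPRM2 and 0 elsewhere. Their library numbers lie in another range than those of the other 6, so the number range and the condition cannot be told apart. Markers of HEK293T cells were nearly absent from them. The summed level of 17 such genes was 17.1 to 20.8 RPKM there, against 642 to 689 RPKM in the empty vector, and 11 of the 17 were at 0 in all 3, among them LIN28B and HMGA2. Markers of blood cells were high, as the plot of marker lists by library shows. Red cell genes summed to 2062000 to 2268000 RPKM against 7.62 to 22.9 in the empty vector, and 12 of 16 had all 3 libraries above all empty vector libraries. Neutrophil and monocyte genes, led by TYROBP, S100A9 and S100A8, summed to 6727 to 7810 RPKM against 40.4 to 41.8 (14 of 15 genes above). Lymphocyte genes summed to 758 to 1041 RPKM against 1.18 to 4.72 (15 of 15 above). Among all 23552 genes above 0 in any library, 11.2% lay above in this way. Endothelial genes summed to 21.2 to 25.1 RPKM against 6.93 to 14.5, but a different gene carried each sum. PECAM1, which blood cells also express, was at 20.5 ± 1.27 RPKM in the libraries labelled hPRM1 and at 0 in the empty vector, and EGFL7 was at 0 and at 10.8 ± 3.95 RPKM (SD, n = 3 each). CDH5 and KDR were at 0 throughout. The part of these differences in the platelet values was not tested. In bulk RNA, fewer cells of a type and less RNA per cell cannot be told apart.

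**Figure D1:**
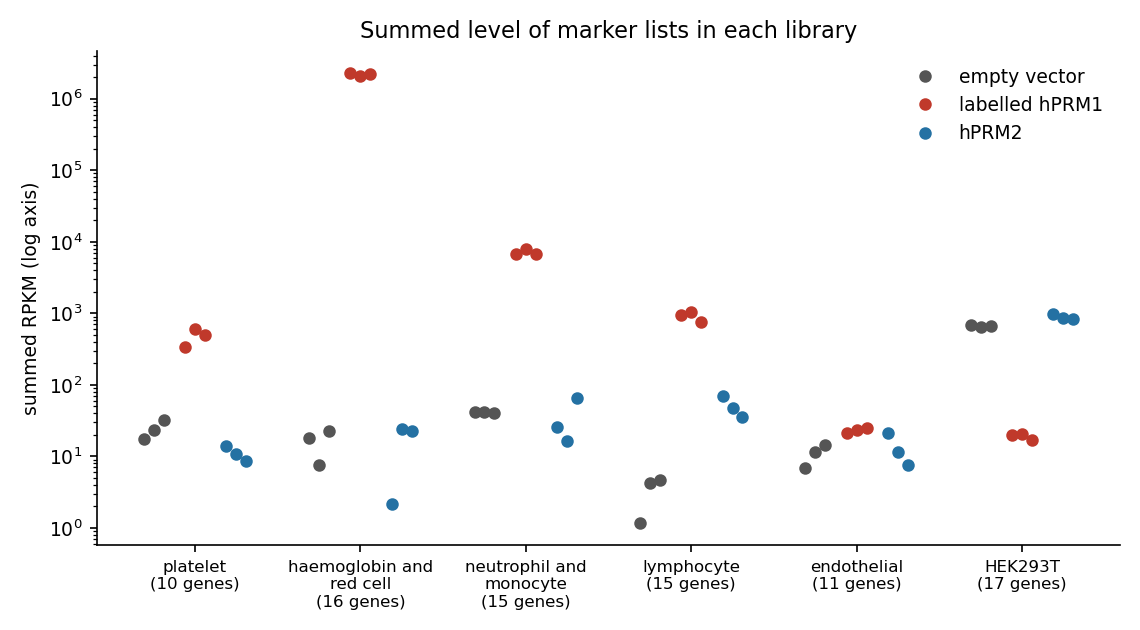
Summed RPKM (log axis) of the platelet genes and of marker lists of other cell types, with 1 point per library and colours for the 3 conditions. Platelet genes lay at 341 to 601 RPKM in the libraries labelled hPRM1 and at 8.61 to 32.1 RPKM in the other 6, and HEK293T genes showed the opposite order.

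The 10 platelet genes together summed to 341, 601 and 501 RPKM in replicates 1, 2 and 3 of the libraries labelled hPRM1. The sums were 17.4, 23.5 and 32.1 RPKM in the empty vector and 14.0, 10.7 and 8.61 RPKM in hPRM2. The number of members above 0 was 10, 10 and 9 in the libraries labelled hPRM1, 3 in each empty vector library, and 1, 3 and 3 in hPRM2. Reads on genes, estimated from the spacing of low values, were 7880000 to 10700000 per library in the empty vector, 4170000 to 5810000 in the libraries labelled hPRM1 and 1260000 to 2640000 in hPRM2. A value of 0 therefore allows up to 0.28 to 0.381 CPM in the empty vector and up to 1.13 to 2.37 in hPRM2, at 3 reads per library. These limits and the intervals on reads cover counting error only.

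**Figure D2:**
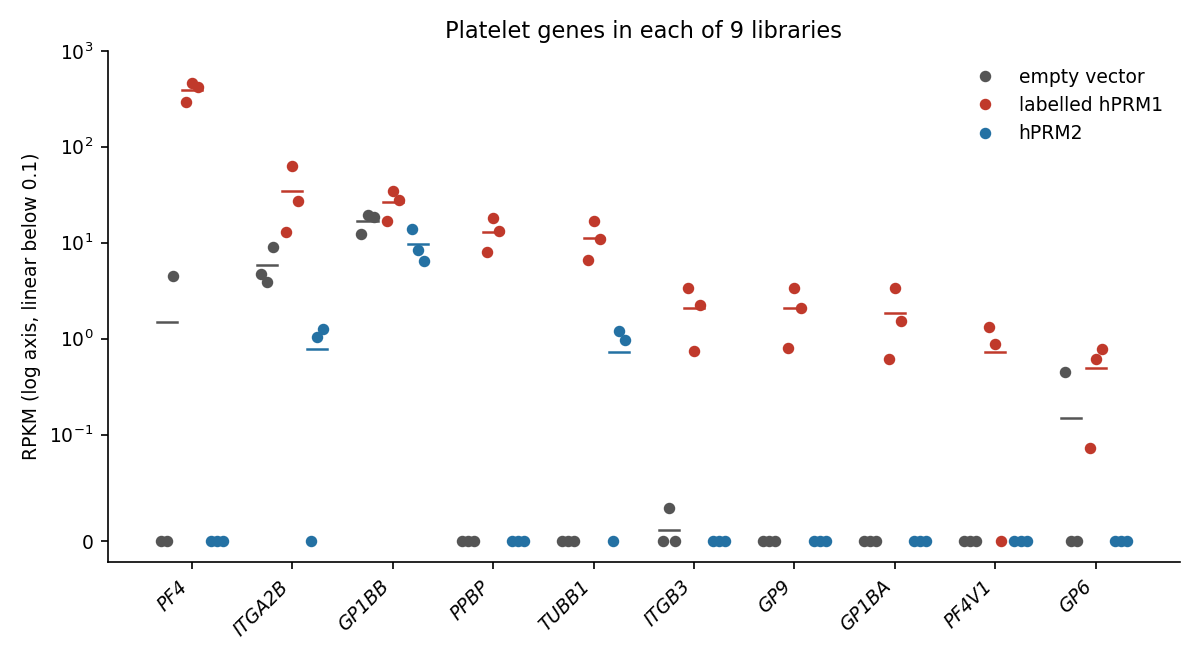
RPKM of each platelet gene in 9 libraries (log axis, linear below 0.1), with 1 point per library and a bar at the mean of 3 libraries. Genes are ordered by their mean in the libraries labelled hPRM1, from 389 RPKM for PF4 to 0.491 RPKM for GP6, and most points of the other 6 libraries lie at 0.

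The 3 granule chemokine genes held 83.7% of the summed RPKM of the members in the libraries labelled hPRM1, but 43.0% of their summed CPM. PF4 (ENSG00000163737, GRCh38 chromosome 4, 73981077 to 73982124, minus strand), a heparin-binding chemokine of the alpha granule, was at 290, 460 and 416 RPKM in the libraries labelled hPRM1. In the empty vector it was at 0, 0 and 4.45 RPKM, and in hPRM2 it was at 0 in all 3. The groups did not overlap, and the mean was 389 ± 88.0 RPKM (SD, n = 3) against 1.48 ± 2.57 in the empty vector (SD, n = 3). The value of empty vector replicate 3 corresponded to 17 reads, while the libraries labelled hPRM1 had 597, 680 and 763 reads. Haemoglobin genes gave no single order among the empty vector libraries. HBA2 was at 0, 0 and 18.0 RPKM, its near-identical copy HBA1 at 3.09, 5.72 and 0 RPKM, and HBB at 0 in all 3. Reads of HBA1 and HBA2 could be split between the copies, so both values are uncertain. PPBP, GP9 and TUBB1 were at 0 in empty vector replicate 3. In the libraries labelled hPRM1, PPBP had only 22, 35 and 32 reads and GP9 3, 9 and 7. A value of 0 for PPBP or GP9 beside 17 reads of PF4 therefore tells little. TUBB1 had more reads in the libraries labelled hPRM1, 123, 225 and 181. HBB was at 818700 ± 65850 RPKM there (SD, n = 3). The source of the 17 reads of PF4 was not tested. Against hPRM2, the mean CPM of PF4 in the libraries labelled hPRM1 was at least 58.0-fold higher, taking 3 reads as the limit of each library at 0.

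PPBP (ENSG00000163736, chromosome 4, 73987038 to 73988197, minus strand), the precursor of the neutrophil-attracting peptide NAP-2, lies 4.9 kb from PF4. It was at 8.07, 17.9 and 13.2 RPKM in the libraries labelled hPRM1 and at 0 in the other 6. These values rested on 22, 35 and 32 reads, 6.11 ± 2.30 CPM (SD, n = 3), which was at least 16.1-fold above the limit in the empty vector. PF4 exceeded PPBP in RPKM by 36.0, 25.7 and 31.6 times in the 3 libraries, so the ratio of these neighbours moved less than either level. The variant gene PF4V1 (ENSG00000109272, chromosome 4, 73853189 to 73854155, plus strand), a copy of PF4 126.9 kb away, had only 2, 1 and 0 reads in these libraries (1.32, 0.874 and 0 RPKM) and 0 elsewhere. Its transcript matched that of PF4 at 450 of 501 aligned bases (89.8%), and 33 of the 251 windows of 50 bases in the last 300 bases of PF4 were identical in PF4V1. Reads from the shared stretch could be split between the copies, so the level of PF4V1 is uncertain.

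The fibrinogen receptor of platelets is a pair of integrin chains, ITGA2B and ITGB3, and the chains did not run in parallel. ITGA2B (ENSG00000005961, chromosome 17, 44372180 to 44389505, minus strand), the alpha chain used almost only by megakaryocytes and platelets, was at 13.1, 62.4 and 27.3 RPKM in the libraries labelled hPRM1. It was also above 0 in the empty vector, at 4.72, 3.85 and 9.05 RPKM, and in hPRM2 it was at 0, 1.04 and 1.27 RPKM. The 3 groups did not overlap. Empty vector levels rested on 115, 101 and 299 estimated reads, and those in hPRM2 on 0, 4 and 6. ITGB3 (ENSG00000259207, chromosome 17, 47253846 to 47311816, plus strand), the beta chain, which other cells pair with ITGAV, was at 3.33, 0.738 and 2.23 RPKM in the libraries labelled hPRM1. In the other 6 libraries it was at 0 except for 0.0312 RPKM in empty vector replicate 2, which was 1 read. ITGAV itself was at 0.0630 to 0.0769 RPKM in the libraries labelled hPRM1 and at 1.19 to 1.40 RPKM in the empty vector. The gene AC068234.1, which covers most of ITGB3 on the same strand, was at 0 in all 9 libraries.

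Chains of the receptor for von Willebrand factor were measured. GP1BA (ENSG00000185245, chromosome 17, 4932297 to 4935030, plus strand), which holds the binding site, was at 0.606, 3.38 and 1.53 RPKM in the libraries labelled hPRM1 and at 0 in the other 6. It had 8, 32 and 18 reads, and its mean of 4.17 ± 3.2 CPM (SD, n = 3) was at least 11.0-fold above the limit in the empty vector. The antisense neighbour CHRNE overlaps it and was at 0.214, 0.901 and 0.359 RPKM in the same libraries and at 0 elsewhere. CHRNE does not cover the 3′ end of GP1BA. Whether reads were counted by strand is not given in the sources used here, so the values of these overlapping genes are uncertain. GP9 (ENSG00000169704, chromosome 3, 129060767 to 129062406, plus strand), a small chain needed to bring the complex to the surface, was at 0.801, 3.35 and 2.10 RPKM in the libraries labelled hPRM1, from 3, 9 and 7 reads, and at 0 in the other 6.
GP1BB (ENSG00000203618, chromosome 22, 19722945 to 19724771, plus strand), the beta chain linked to GP1BA, was the member that all libraries shared. It was at 12.2, 19.7 and 18.6 RPKM in the empty vector, at 16.9, 34.5 and 27.7 RPKM in the libraries labelled hPRM1, and at 14.0, 8.44 and 6.39 RPKM in hPRM2. The empty vector and the libraries labelled hPRM1 overlapped, as did the empty vector and hPRM2. In the empty vector GP1BB was therefore detected without GP1BA and GP9, which were at 0 there. GP1BB lies downstream of SEPT5 on the same strand, a gene at 0 to 1.005 RPKM in these libraries, and a read-through transcript of both genes ends at the same 3′ end, so reads of this 3′ end could come from either transcript.

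TUBB1 and GP6 complete the set. TUBB1 (ENSG00000101162, chromosome 20, 59019254 to 59026654, plus strand), the beta tubulin of the platelet's marginal band, was at 6.52, 16.6 and 10.8 RPKM in the libraries labelled hPRM1, from 123, 225 and 181 reads. It was at 0 in all empty vector libraries, so its mean CPM in the libraries labelled hPRM1 was at least 96.3-fold higher. In hPRM2 it was at 0, 1.21 and 0.958 RPKM, where the values above 0 were 5 reads each. The antisense gene ATP5F1E covers the 3′ end of TUBB1. It was at 394 to 438 RPKM in the empty vector, where TUBB1 was at 0, and at 16.5 to 50.3 RPKM in the libraries labelled hPRM1. As for GP1BA, counting by strand is not given, so the effect of this overlap on TUBB1 is uncertain. GP6 (ENSG00000088053, chromosome 19, 55013705 to 55038264, minus strand), the collagen receptor, was the lowest member, at 0.0870, 0.606 and 0.781 RPKM in the libraries labelled hPRM1, from 1, 5 and 8 reads. Empty vector replicate 1 had 0.451 RPKM from 7 reads and the other 5 libraries were at 0, so the groups overlapped. FCER1G, the signalling chain that GP6 needs and that myeloid cells also use, was at 296, 420 and 315 RPKM in the libraries labelled hPRM1 and at 0 in the other 6.

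In order of mean RPKM in the libraries labelled hPRM1, PF4 stood first at 389 ± 88.0, ITGA2B followed at 34.2 ± 25.4, GP1BB at 26.4 ± 8.82, PPBP at 13.04 ± 4.90 and TUBB1 at 11.3 ± 5.07 (SD, n = 3 each). Next were ITGB3 at 2.10 ± 1.30, GP9 at 2.08 ± 1.27 and GP1BA at 1.84 ± 1.41, and then PF4V1 at 0.731 ± 0.671 and GP6 at 0.491 ± 0.361 (SD, n = 3 each). Apart from PF4 and its follower, neighbours in this order had overlapping libraries except at the step from TUBB1 to ITGB3. A library of 3′ ends gives reads that need not grow with gene length, so the order by CPM was different. In replicate 2, ITGA2B exceeded PF4, at 192 against 163 CPM. The order of the means ran from PF4 at 138 ± 31.2 CPM and ITGA2B at 106 ± 78.3 CPM to TUBB1 at 36.7 ± 16.4 CPM, GP1BB at 34.3 ± 11.5 CPM and ITGB3 at 7.85 ± 4.77 CPM, ahead of PPBP at 6.11 ± 2.30 CPM (SD, n = 3 each). By RPKM in the empty vector, the order changed again, with GP1BB at 16.8 ± 4.04 and ITGA2B at 5.88 ± 2.79 ahead of PF4 (SD, n = 3 each), and 5 members at 0 in every library.

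All 3 libraries labelled hPRM1 lay above all 3 empty vector libraries for 7 of the 10 members (PF4, PPBP, ITGA2B, ITGB3, GP1BA, GP9 and TUBB1). Among all 23552 genes above 0 in any library, 11.2% did so. None of the 10 lay below in all 3 libraries, against 42.3% of those genes. These counts describe the contrast from which the set was proposed, and nothing is read from them. The limma model on log2(RPKM + 1) tested genes with at least 1 RPKM in at least 3 of the 6 libraries compared, and called those that changed 2-fold or more with a p-value, adjusted over all of them, up to 0.05. Only 5 members passed this filter. Members at 0 in the empty vector pass it only by being high in all 3 libraries labelled hPRM1. The log2 fold changes were 7.76 (standard error 0.68) for PF4, 3.75 (0.31) for PPBP, 3.54 (0.34) for TUBB1, 2.17 (0.58) for ITGA2B and 0.59 (0.32) for GP1BB, on a scale that understates the change of low genes. The model called 4 of these 5 higher and none lower, which is a description too, because the members were chosen with this contrast in view. Of 13588 tested genes, 12.9% were called higher and 62.5% lower. The median of all tested genes was -1.72, and GP1BB lay above it with 16.9% of tested genes higher still. Scaling moved this background. After median-of-ratios rescaling the median of all genes was -0.12, with 3919 genes called higher and 3925 lower instead of 1750 and 8491, and GP1BB, at 2.65, joined the called members. After quantile normalization 3475 were higher and 4388 lower, and GP1BB was at 2.28. The direction of each of the 5 members was the same under both scalings.

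**Figure D3:**
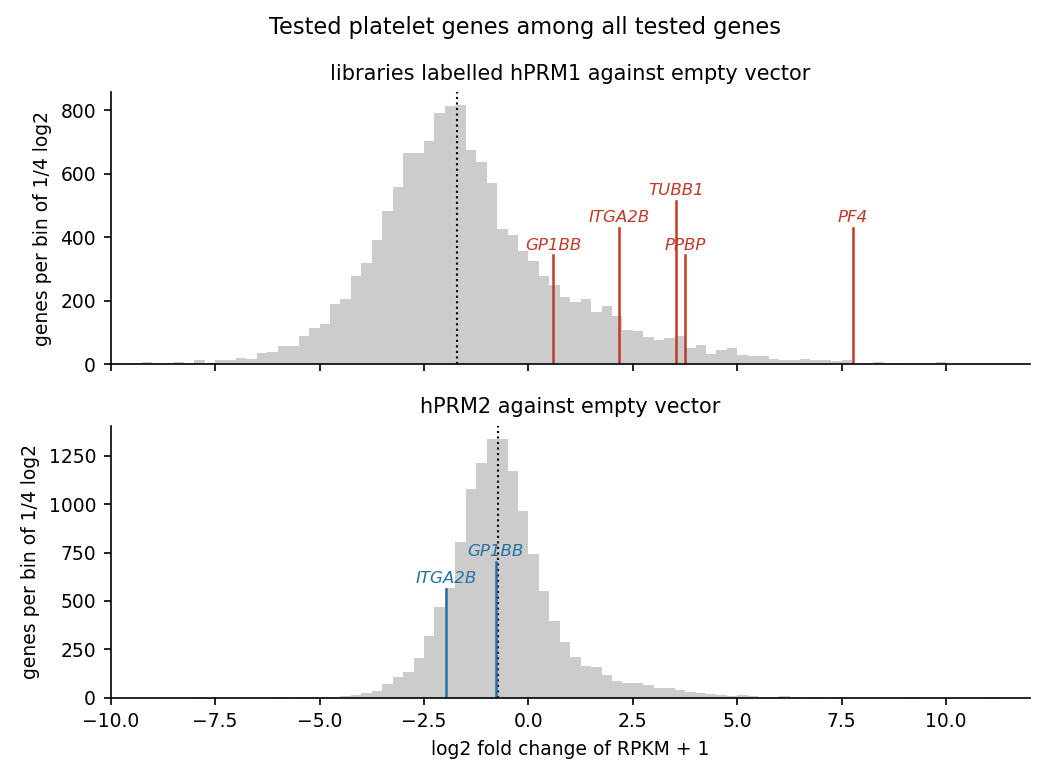
Histograms of the log2 fold change of RPKM + 1 over all tested genes, with lines at the platelet genes that were tested and a dotted line at the median of all genes. Against the empty vector, PF4 stands at 7.76 in the libraries labelled hPRM1, whereas in hPRM2 GP1BB sits beside the median (-0.72) and ITGA2B at -1.97.

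The platelet genes were low or absent in hPRM2, whose PRM2 level matched its label. In hPRM2, 7 members were at 0 in all 3 libraries, and none was above the empty vector in all 3, against 3.73% of the 23552 genes above 0 in any library. ITGA2B lay below the empty vector in all 3 libraries, which 19% of those genes did. Only ITGA2B and GP1BB passed the filter. The log2 fold change of ITGA2B was -1.97 (standard error 0.59, limma adjusted p = 0.111) and that of GP1BB was -0.79 (standard error 0.52, limma adjusted p = 0.363). Neither was called, where 1.36% of 13126 tested genes were called higher and 1.37% lower. ITGA2B alone of the pair had an unadjusted limma p under 0.05 (0.0125), as did 3351 of the 13126 tested genes. At the depth of hPRM2, 0 allows up to 2.37 CPM. The mean CPM of PPBP, ITGB3 and GP1BA in the libraries labelled hPRM1 was at least 2.58-, 3.31- and 1.76-fold above this limit. GP1BA in replicate 1 of those libraries, at 1.38 CPM, lay below it. GP9, PF4V1 and GP6, at 1.34, 0.195 and 0.971 CPM in those libraries, lay below this limit of the shallowest hPRM2 library, and GP9 lay above the limit of the deepest (1.13 CPM).

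The members also varied within the libraries labelled hPRM1. Replicate 2 was the highest of the 3 for 7 members and replicate 1 the lowest for 8. Over 8488 genes with at least 1 RPKM in all 3, replicate 2 was highest for 54.7% and replicate 1 lowest for 45.7%. The plot relative to the mean of the 3 libraries shows 8 lines going up from replicate 1 to replicate 2 and ITGB3 going down. From replicate 1 to replicate 2 the RPKM ratio was 1.58 for PF4, 2.03 for GP1BB, 2.22 for PPBP and 2.55 for TUBB1, and 4.77 for ITGA2B and 5.57 for GP1BA. ITGB3 was 4.51 times higher in replicate 1 than in replicate 2. Of the 8488 genes, 0.589% had this ratio or a larger one, although ITGB3, at 0.738 RPKM in replicate 2, was not among them. The counting intervals of replicates 1 and 2 did not overlap, but they rest on an assumed transcript and on independent reads. ITGB3 had 12.4 CPM in replicate 1 (95% exact Poisson interval 9.70 to 15.6) and 2.87 in replicate 2 (1.49 to 5.02). GP1BA went the other way, with 1.38 (0.594 to 2.71) and 7.67 (5.24 to 10.8). The RPKM of ITGB3 was accordingly 0.255, 0.0118 and 0.0818 of that of ITGA2B in replicates 1, 2 and 3. GP1BA stayed closer to GP9, at 0.757, 1.01 and 0.730 of its RPKM. The coefficient of variation was lowest for PF4 (22.6%), near the median of 24.4% over the 8488 genes. It was highest for PF4V1 (91.8%), which had only 2, 1 and 0 reads. GP1BA was at 76.8%, ITGA2B at 74.1% and GP6, with 1, 5 and 8 reads, at 73.5%. Red cell genes did not follow the members here. Of 12 red cell genes with at least 1 RPKM in all 3 libraries, replicate 2 was lowest for 7, while it was highest for 11 of 15 lymphocyte genes and 9 of 14 neutrophil and monocyte genes. The summed red cell level was 2268000, 2062000 and 2237000 RPKM in replicates 1, 2 and 3. RPKM is scaled within each library, so a lower share of red cell reads raises all other genes. These patterns are therefore not independent, and the part of this scaling in them was not tested.

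**Figure D4:**
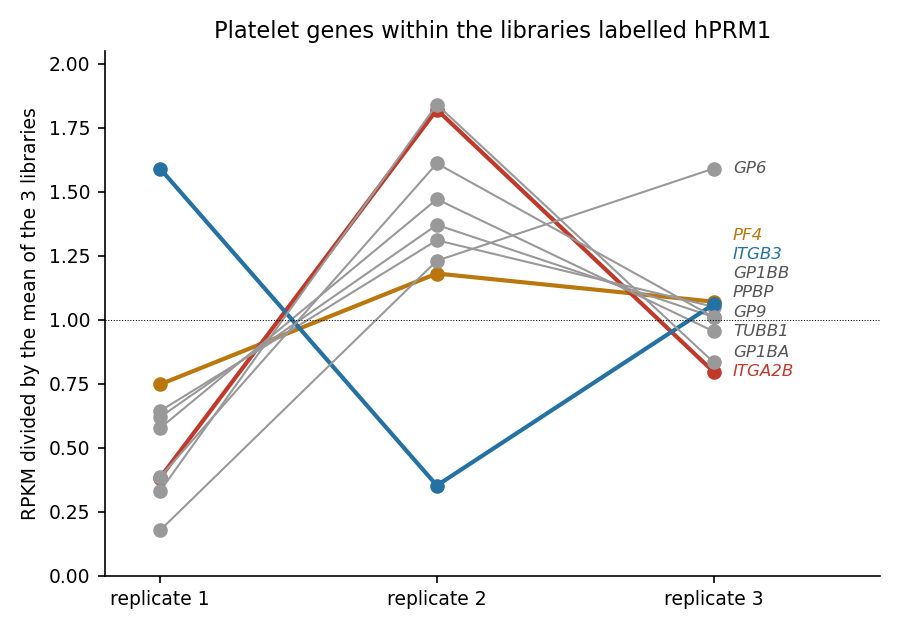
RPKM of 9 platelet genes in each library labelled hPRM1, divided by the mean of the 3 libraries (PF4V1, with 2, 1 and 0 reads, is left out). ITGB3 is at 1.59 of its mean in replicate 1 and 0.352 in replicate 2, whereas ITGA2B is at 0.382 and 1.82.

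Other genes that platelets use were looked up in lists of receptors, granule proteins, signalling proteins and cytoskeleton, chosen with results of these data known. Receptors typical of the lineage were unequal in the libraries labelled hPRM1. P2RX1, an ATP-gated channel, was at 11.4 ± 1.58 RPKM against 0.223 ± 0.387 in the empty vector (SD, n = 3 each; log2 fold change 3.38, called higher), the scavenger receptor CD36 at 2.77, 5.95 and 4.31 RPKM (2.31, called higher), and TREML1, a granule receptor, at 5.06, 7.04 and 3.24 RPKM (2.56, called higher). MPIG6B, an inhibitory receptor, was at 0 in all 9 libraries. GP5, the remaining chain of the von Willebrand factor receptor, was at 0.104, 0.217 and 0.175 RPKM, SELP, an adhesion molecule of the granule membrane, at 0.361, 0.586 and 0.135 RPKM, and the clotting protein VWF at no more than 0.111 RPKM. These receptors and VWF were named after their values were seen. P2RX1, CD36 and TREML1 had no empty vector library at 1 RPKM. They passed the filter only through the libraries labelled hPRM1 and had to be higher. The same holds for SRGN and FCER1G below. The list counts that follow stand beside 12.9% of all tested genes called higher and 62.5% lower in the deposited scaling. Of the tested list genes, 4 of 12 receptors, 3 of 13 granule proteins, 9 of 27 signalling genes, 3 of 19 cytoskeletal genes and 4 of 8 transcription factors had no empty vector library at 1 RPKM, so they passed the filter only through the libraries labelled hPRM1 and had to be higher.

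Of 23 other surface receptors, 12 were tested, and 5 were called higher and 4 lower, with a median log2 fold change of -0.18 beside -1.72 over all genes. CD63, FCGR2A and PTAFR had the highest means in the libraries labelled hPRM1. FCGR2A, an antibody receptor that myeloid cells share, was at 181 ± 38.2 RPKM (SD, n = 3) against 0.164 ± 0.235 in the empty vector, and PTAFR, the receptor for platelet activating factor, was at 68.5 ± 4.09 against 0.634 ± 0.745 (SD, n = 3 each). CD63, a membrane protein of granules and lysosomes in many cells, was at 516 ± 21.7 against 1002 ± 141 RPKM (SD, n = 3 each) and was not called. CD9 and JAM3, the other receptors highest in the empty vector, were called lower, at -1.55 and -3.38. Of 20 granule and secreted proteins, 13 were tested, with 5 higher, 5 lower and a median of -0.12. CCL5 and SRGN, which lymphocytes and myeloid cells also make, were called higher, at 2.53 and 7.17. TIMP1, CLU and APP were called lower, at -1.31, -1.56 and -2.38.
Of 28 signalling proteins, 27 were tested, with 15 called higher, 6 lower and a median of 1.81. FCER1G (8.41), SH3BGRL3 (3.29) and RASGRP2 (3.77), the exchange factor that switches on RAP1, led it by level and were called. RGS10 and the kinase ILK, which were highest in the empty vector with SH3BGRL3, changed by -1.01 (called lower) and -0.57 (not called). Of 20 cytoskeletal and membrane traffic genes, 19 were tested, with 7 higher, 5 lower and a median of 0.51. TMSB4X, an actin-binding peptide, was at 3571 ± 333 RPKM against 37.1 ± 19.7 (SD, n = 3 each), FLNA changed by 0.83 and ACTN1 by 0.46 without a call, and PDLIM1 and TPM4 were called lower, at -2.65 and -1.82. The plot of the platelet genes with these lists shows the spread on both sides of the line of equal level. Directions of several list genes depended on the scaling. After median-of-ratios rescaling, the calls were 7 higher and 1 lower among receptors, 7 and 0 among granule proteins, 20 and 1 among signalling genes and 14 and 1 among cytoskeletal genes. After quantile normalization they were 7 and 1, 7 and 0, 18 and 0, and 13 and 2. Of the genes named, CD9, TIMP1, CLU and RGS10 had positive log2 fold changes under both, from 0.15 to 1.13, and RGS10 was called higher after median-of-ratios rescaling. TPM4 was at 0.33 and -0.10, APP at -0.29 and -0.72 and PDLIM1 at -0.50 and -0.91, all without a call. CD63, FLNA, ACTN1 and ILK were called higher under both, at 1.02 to 3.02, and JAM3 stayed lower with a call, at -1.72 and -1.87. In hPRM2, of these 4 lists only CCL5 was called higher (3.03, limma adjusted p = 0.0424), and GAS6 (-1.73, limma adjusted p = 0.0498) and TBXAS1 (-3.84, limma adjusted p = 0.0470) were called lower. TBXAS1 and GAS6 were named after their values were seen. These calls lay near the threshold and were lost under most of the 15 alternatives. CCL5 and TBXAS1 were called in 4 each and GAS6 in 3 of the 11 in which it was tested, and none was called by the per-gene unequal-variance test or without any 1 of the empty vector libraries, where GAS6 was not tested. Adjusted p ranged from 0.00355 to 0.253 for CCL5, from 0.00557 to 0.447 for GAS6 and from 0.00486 to 0.304 for TBXAS1.

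**Figure D5:**
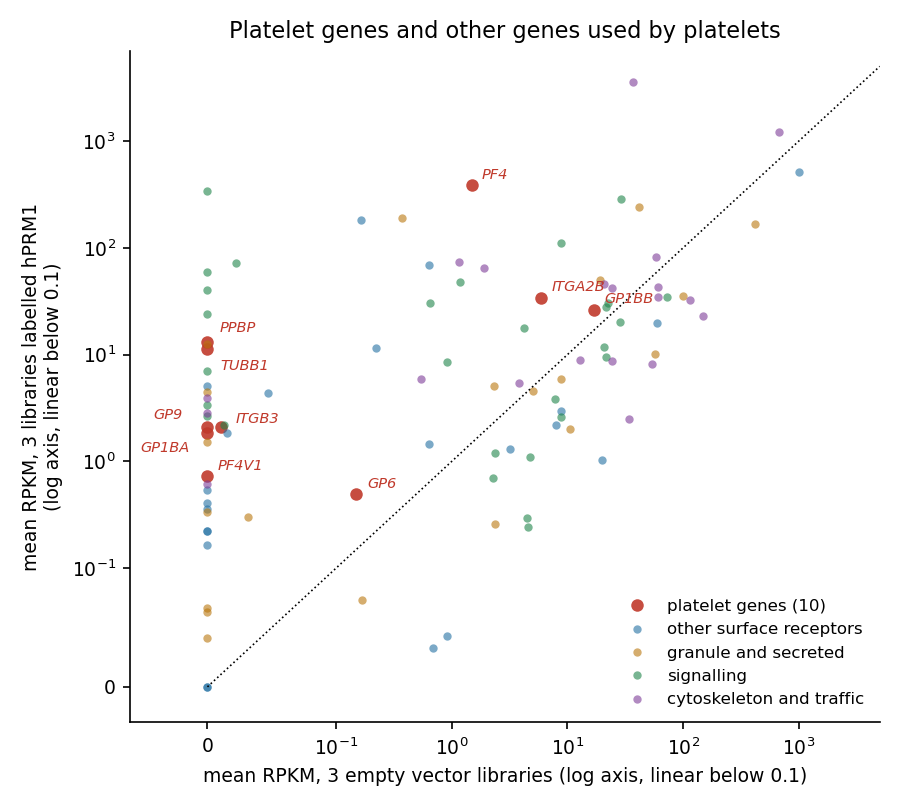
Mean RPKM of 3 empty vector libraries (x) against mean RPKM of 3 libraries labelled hPRM1 (y), both on log axes that are linear below 0.1, for the 10 platelet genes and 91 other genes used by platelets. The dotted line marks equal levels. The means of the 10 platelet genes, which were chosen with this contrast in view, lie above it, with PF4 at 389 against 1.48 RPKM. Single libraries of PF4V1, GP1BB and GP6 overlapped between the groups. The other genes lie on both sides.

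Of 9 transcription factors of megakaryocytes, 8 were tested, with 6 called higher and 2 lower and a median of 2.58, and 4 of the 6, GATA1 and GFI1B among them, passed the filter only through the libraries labelled hPRM1. NFE2, which drives platelet release, was at 66.6 ± 6.63 RPKM in the libraries labelled hPRM1 against 0.0277 ± 0.0480 in the empty vector, TAL1 at 49.0 ± 21.9 against 0.636 ± 0.597, and FLI1 at 23.7 ± 4.34 against 1.80 ± 1.06 (SD, n = 3 each). Red cell precursors and white blood cells use these factors too. MEIS1 was called lower at -2.38, and also after both rescalings. MAFG was called lower at -1.35 but was at 0.73 and 0.30 after them, with no call.
Relatives of single members showed where the members stood in their families. Of 24 other integrin subunits, 15 were tested, with 6 called higher, none of which had an empty vector library at 1 RPKM, and 5 lower. ITGB2, the beta chain of leukocytes, was highest in the libraries labelled hPRM1, at 1287 ± 166 RPKM (SD, n = 3), ahead of ITGB7 at 119 ± 35.3 and ITGAL at 54.4 ± 17.9 (SD, n = 3 each), and all of these exceeded ITGA2B. ITGAE and ITGB5 were called lower, at -4.24 and -1.91, and ITGB1 changed by -0.86 without a call. After the rescalings ITGAE remained called lower, ITGB5 was at -0.20 and -0.38 with no call, and ITGB1 was at 1.28, called higher, and 0.85. Of 8 other beta tubulins, 7 were tested, none was called higher and 6 were called lower in the deposited scaling, in which 62.5% of all tested genes were. TUBB, TUBB4B and TUBB2B changed by -4.57, -3.70 and -7.25, and TUBB2A by -0.67 without a call. TUBB, TUBB4B and TUBB2B were also called lower after both rescalings, from -6.37 to -1.56, but TUBB2A was then called higher, at 1.45 and 1.02. Of 14 other CXC chemokines, CXCL16 and CXCL1 were tested. CXCL16 changed by 0.19 and was not called, and CXCL5 was at 0.746, 1.97 and 1.84 RPKM. CXCL1 was called higher at 1.77, but it was at 0 in every empty vector library. It passed the filter only through the libraries labelled hPRM1, so it had to be higher. CXCL5 and CXCL1 lie in the same chromosome 4 cluster as PF4 and PPBP, while PF4 exceeded both by far on the RPKM scale.

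Profiles most like each member were found by Euclidean distance on log2(RPKM + 1) over the 9 libraries, as a description across libraries that share depth and group. For PF4 the nearest genes were WAS (distance 2.15), ALOX5AP (2.47) and FCER1G (2.48). PPBP lay nearest to CIDEB (0.424), GRAP2 (0.439) and LGALS8 (0.502). ITGA2B lay nearest to ATP11A (1.65), RUNX3 (1.65) and SLCO3A1 (1.70), and TUBB1 to ANKRD44 (0.943) and C5AR2 (0.991). GP1BB was nearest to IER3 (1.01), SPSB3 (1.02) and KIAA2013 (1.06). For the low members the distances are small because most values are near 0. GP9 and GP1BA were among the 3 nearest genes of each other (0.335), together with TNFRSF14-AS1 (0.255) and MAP1LC3B2 (0.363) for GP9 and LINC02863 (0.227) and RPSAP21 (0.238) for GP1BA. ITGB3 was nearest to LINC00968 (0.169), GNGT2 (0.285) and DNMT3L-AS1 (0.294), and GP6 to SNHG28 (0.446), PLIN4 (0.466) and SWINGN (0.543). GP1BA and GP9 were the only members named among the nearest 3 genes of another member.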

How the data were processed

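RNA of 3 empty vector, 3 hPRM1 and 3 hPRM2 libraries was prepared by the authors with a 3′ mRNA kit and processed with nf-core/rnaseq (FastQC, cutadapt, STAR and Salmon, versions not given in the sources used here) on hg38, per the labels and the methods. The authors removed mitochondrial genes and deposited RPKM values of 57338 genes (33786 with no value above 0). The gene annotation is not given in the sources used here, and coordinates are from GENCODE 29 (GRCh38). No column was left unused.

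Reads were estimated from steps of low RPKM in genes with 1 transcript, after taking 250 bases off the annotated length, which aligned 2026 values against 252 without it. For ITGA2B, ITGB3, GP1BA and GP6 the longest protein-coding transcript was assumed. Counts of reads were not recovered for all genes, so no count test was run. Intervals assume reads are independent molecules.

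limma 3.58.1 (R 4.3.3) was run with trend and robust settings on log2(RPKM + 1) within each comparison, with Benjamini-Hochberg adjustment over all tested genes. It was tested on simulated data. Python 3.11.15 with pandas 2.3.3, numpy 2.4.6, SciPy 1.17.1 and matplotlib 3.10.9 did the rest. Alternatives were pseudocounts of 0.1 and 5, no filter, a minimum of 10, 2 other scalings, a joint fit of the 9 libraries, the replicate number as a block, omission of each replicate and a per-gene unequal-variance test. The members and lists were chosen with earlier results of these data known. Named genes are the 10 members, the 3 highest genes of each list in the libraries labelled hPRM1 and in the empty vector (over all libraries for markers of other cell types), overlapping genes and the 3 nearest profiles. Some genes under this rule are not reported here. Other names were added after their values were seen. Genes of personal variation were left out of the nearest profiles.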

Additional observations from a re-analysis of the deposited data

How the results depend on the processing

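The 4 members called higher in the libraries labelled hPRM1 (PF4, PPBP, ITGA2B and TUBB1) became 7 with no filter on low values, when ITGB3, GP1BA and GP9 were tested as well, and 2 with a minimum of 10 RPKM. Leaving out 1 library gave 2 to 4. It gave 2 (PF4 and ITGA2B) without replicate 1, 2 or 3 of these libraries, because PPBP and TUBB1 were then above 1 RPKM in only 2 libraries and left the test. Calls over all genes fell from 10241 to 5837 with a minimum of 10 RPKM, where fewer genes were tested. No log2 fold change of a tested member changed direction under these alternatives. PPBP and TUBB1 were at 0 in every empty vector library, so theirs could hardly do so. The members were chosen with this contrast in view, so this stability is a description only. PF4 lay between 5.97 and 10.1, PPBP between 1.81 and 6.97, TUBB1 between 1.66 and 6.73 and ITGA2B between 1.61 and 4.06. ITGA2B was not called with the per-gene unequal-variance test (2.17, adjusted p = 0.0753), and GP1BB, between 0.37 and 2.65, was called only after the 2 rescalings.

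For hPRM2, no member was called under any alternative, and ITGA2B lay between -3.37 and -0.89 and GP1BB between -1.07 and -0.27. Calls over all genes, 359 in the fit reported, were 89 with no filter, 167 with a minimum of 10 RPKM, 2125 in a fit of all 9 libraries and 0 with the per-gene unequal-variance test, where 2206 genes had an unadjusted p under 0.05. Leaving out 1 library gave 10 to 2257 calls. They were 2257 without hPRM2 replicate 1, 10 and 15 without hPRM2 replicates 2 and 3, and 17, 41 and 15 without empty vector replicates 1, 2 and 3. The cause was not tested. With the replicate number as a block, 57 genes were called for hPRM2 and 10334 for the libraries labelled hPRM1, with 4 members. The deviations of same-numbered libraries from their group means correlated between -0.0783 and 0.0795 over 14901 genes. The labels do not say whether same-numbered libraries shared a culture or a preparation, and these correlations cannot tell. Depth limits GP9, PF4V1 and GP6 most, with at most 9 reads per library.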
